A study of Homo sapiens with 4 samples.

Results

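N6-methyladenosine (m6A) sites in the exons of long noncoding RNAs (lncRNAs) made up 250 of the 18789 sites in the list analysed here, or 1.33% (95% Wilson interval 1.18 to 1.505). A site was taken when it lay, on its own strand, in an exon of an annotated lncRNA gene and in no exon of a protein-coding gene on that strand. Of the remaining sites, 18432 lay in exons of protein-coding genes, 26 only in other exons and 81 in no exon on their strand. The 250 sites fell in 86 host genes, 0.456% of the 18866 annotated lncRNA genes, on 19 chromosomes. The plus strand held 130 of the sites and the minus strand 120. All 250 were single adenosines.

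The sites came from miCLIP2 on polyadenylated RNA of untreated wild-type C643 cells, an established line from an anaplastic thyroid carcinoma. There were 3 biological replicates and 4 libraries, because replicate 1 was sequenced as 2 technical libraries. No methylation-deficient or other control group was part of the data used here. In miCLIP2, ultraviolet light fixes an m6A-specific antibody to fragmented RNA, reverse transcription stops beside the fixed base, and m6Aboost, a machine learning classifier, then scores each candidate adenosine between 0 and 1. The list gave 1 score for each accepted site over the pooled replicates, and neither read depth nor expression. The spread between cultures, the fraction of molecules methylated and the markers of the cell line could therefore not be examined. Intervals below count sites or motifs only, and because sites of 1 gene are not independent they are too narrow.

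m6A is written onto nascent transcripts by a complex with METTL3 as its catalytic subunit. The enzyme prefers adenosines in the motif DRACH, in which D is any base but C, R is a purine and H is any base but G. In messenger RNA the mark is known for its density in long internal exons and around the stop codon, and for its depletion close to splice junctions, where exon junction complexes are deposited. LncRNAs are capped and mostly polyadenylated like messenger RNA but lack a long reading frame, so the landmarks they share with it are exons and transcript ends.

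To show the sequence around sites of the hosts with the most sites, the highest-scored site of each of the 12 lncRNAs with the most sites is printed in 29 nt of reference sequence (GRCh38, 5′ to 3′ on the transcribed strand). Capitals mark the pentamer whose central A is the site.
LINC00963 (chr9:129503637-129503665, plus strand): gggtccgctctgGGACTgacactggcaga
MRPL20-AS1 (chr1:1400804-1400832, plus strand): ctgggaacaggaGGACTatggcacaaacc
LINC00942 (chr12:1504338-1504366, plus strand): gacttcacctaaAAACTttgggttcattc
ENSG00000261327 (chr16:88186213-88186241, minus strand): cttgaacgtgaaGGACTggctttggaaac
LINC03057 (chr17:48636495-48636523, minus strand): gctggggtctagGAACTcggcttctggca
HEIH (chr5:180831011-180831039, minus strand): cggctgtcaaaaGAACTcttcgctccagc
LINC02693 (chr17:21534988-21535016, minus strand): gtgtgattcatgGAACTcagaatccttgt
HSD17B1-AS1 (chr17:42552726-42552754, minus strand): gcttggaacaacAAACTgtcctggttgct
FAM131B-AS2 (chr7:143379887-143379915, minus strand): ggatctaaactgAAACTggtgtcagatct
ARRDC1-AS1 (chr9:137618024-137618052, minus strand): aacaagaagcatGGACTgaatttgaggtt
ENSG00000286104 (chr19:58583024-58583052, plus strand): gagcccccaaagAGACTcagcagtgcaga
FAM86DP (chr3:75423001-75423029, minus strand): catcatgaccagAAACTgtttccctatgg
Each of these windows lay within a single exon, and the pentamer ended in ACT in all 12.

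The pentamers that departed from DRACH are shown in the same way for the highest-scored lncRNA site of each of the 5 most frequent ones, because they make up most of the sites outside the motif.
CTBP1-DT (chr4:1250557-1250585, plus strand): gctgccgggaagGGACGatgtggttggtg
FOXD2-AS1 (chr1:47433551-47433579, minus strand): ttaagcacccaaGTACTgcgcggttgttg
HEIH (chr5:180830507-180830535, minus strand): cttaggcaagatGAACGtctgaaatggag
SNHG16 (chr17:76563556-76563584, plus strand): caaatcaatgaaGGATTgataaaagttct
FAM86DP (chr3:75422669-75422697, minus strand): gtgtatcaagtaTGACGttcccccaatgt
The pentamers of CTBP1-DT, HEIH and FAM86DP still met the shorter motif RAC, in which R is a purine, and those of FOXD2-AS1 and SNHG16 did not.

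The host lncRNAs carried few sites each. Of the 86 hosts, 31 (36.0%, 26.7 to 46.6) had 1 site, 25 (29.1%) had 2 and 18 (20.9%) had 5 or more. The median was 2 sites per gene with quartiles of 1 and 4 and a maximum of 12, whereas the 3753 protein-coding hosts had a median of 3, quartiles of 2 and 7 and a maximum of 48. A single site was held by 20.4% (19.1 to 21.7) of the coding hosts. The 12 lncRNAs with the most sites together held 97 of the 250 sites (38.8%, 33.0 to 45.0), with SLC9A3-AS1 tied at 6 sites with the last 4 of them.

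**Figure D1:**
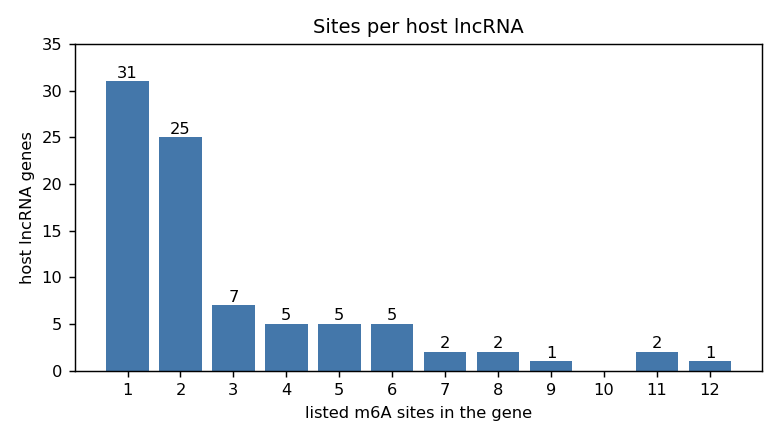
Number of host lncRNA genes (vertical axis) by the number of listed m6A sites in the gene (horizontal axis). Genes with 1 site (31) and with 2 sites (25) are the tallest bars, and LINC00963 stands alone at 12.

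Hosts were grouped by the form of their gene symbol, which records where a lncRNA lies relative to its neighbours. Antisense genes, named after a gene on the opposite strand, were 20 of the 86 hosts and held 68 sites, among 1841 annotated genes of this form. Intergenic genes with a LINC name were 12 hosts with 52 sites among 2261 annotated genes, and divergent transcripts, which start at the promoter of a neighbour and run away from it, were 9 hosts with 18 sites among 589. Genes with an identifier and no symbol were 19 hosts with 51 sites among 13109 such annotated genes. Small nucleolar RNA host genes (SNHG) were 9 hosts with 16 sites among 28 annotated genes of that name. The expression of these classes in C643 cells was not measured by the list, so the share of each class with a site cannot be told apart from the share that was transcribed.

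LINC00963, an intergenic lncRNA first studied in prostate cancer, had the most sites, 12. Of these, 11 could be placed in its chosen transcript of 9557 nt, where all lay in the second and last exon of 9357 nt. From 5′ to 3′ along that exon, 9 sites stood between transcript positions 280 and 660, with scores of 0.827, 0.809, 0.637, 0.825, 0.643, 0.777, 0.899, 0.759 and 0.589. The other two stood at positions 1796 (0.585) and 1834 (0.548), and none beyond, so the sites occupied the start of a very long exon. Only 10 of the 169 DRACH motifs of this transcript were listed (5.92%, 3.25 to 10.5).

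MRPL20-AS1, named as an antisense neighbour of the mitochondrial ribosomal protein gene MRPL20, had 11 sites in a single exon of 2529 nt. One stood at position 106 (score 0.668), 7 between positions 1224 and 1787 (0.842, 0.537, 0.898, 0.805, 0.896, 0.753 and 0.605) and 3 between 2381 and 2428 (0.722, 0.778 and 0.789). All were DRACH, and they covered 11 of its 49 motifs (22.4%, 13.03 to 35.9). LINC00942, an intergenic gene downstream of ERC1, also had 11 sites, all in the second exon of 1958 nt, at scores from 0.522 to 0.973. They were spread along the exon from position 370 to 2138 of 2210, and 10 of 39 motifs were listed (25.6%, 14.6 to 41.1). The last of them, AAACT, had the second-highest score of all lncRNA sites and lay closer to the transcript's 3′ end than any of the other 10.

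ENSG00000261327, an unnamed gene on chromosome 16, had 9 sites over both of its exons, 3 in the first (732 nt) and 6 in the last (1334 nt). A pair of its GGACT sites reached 0.971 and 0.958, and its remaining sites ran from 0.509 to 0.787, including 3 outside DRACH. LINC03057 had 8 sites, 1 in the first exon and 7 in the last of 851 nt, with scores from 0.511 to 0.954. Its transcript of 1270 nt holds only 19 DRACH motifs, and 8 were listed (42.1%, 23.1 to 63.7), or 6.30 sites per kb. This was the highest listed share among the 12 hosts with the most sites. HEIH, a lncRNA first described in hepatocellular carcinoma as a partner of the Polycomb methyltransferase EZH2, had 8 sites in 1 exon of 1668 nt, with scores between 0.507 and 0.934 and a median of 0.665.

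LINC02693 had 7 sites with scores from 0.638 to 0.831, of which 6 stood between transcript positions 1089 and 1247 of 7914. HSD17B1-AS1, antisense to the gene of the estradiol-forming enzyme HSD17B1, had 7 sites in a single exon, all at DRACH, with scores from 0.652 to 0.929. FAM131B-AS2, also of 1 exon, had 6 sites between 0.602 and 0.852, in 2 groups at positions 627 to 679 and 1039 to 1131. In ARRDC1-AS1 only 3 of 6 sites lay in the chosen transcript, at positions 480 to 532, with scores of 0.902, 0.653 and 0.767. The unnamed ENSG00000286104 stood apart from the other 11 in that all 6 of its sites lay in the first of 4 exons (577 nt), between positions 127 and 478, and these also overlapped an exon of an annotated processed pseudogene. FAM86DP, annotated by RefSeq as a transcribed pseudogene of the FAM86 family, had 6 sites in its last exon (1496 nt) with scores from 0.539 to 0.872. How uniquely reads of these pseudogene-related hosts could be placed was not measured.

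**Figure D2:**
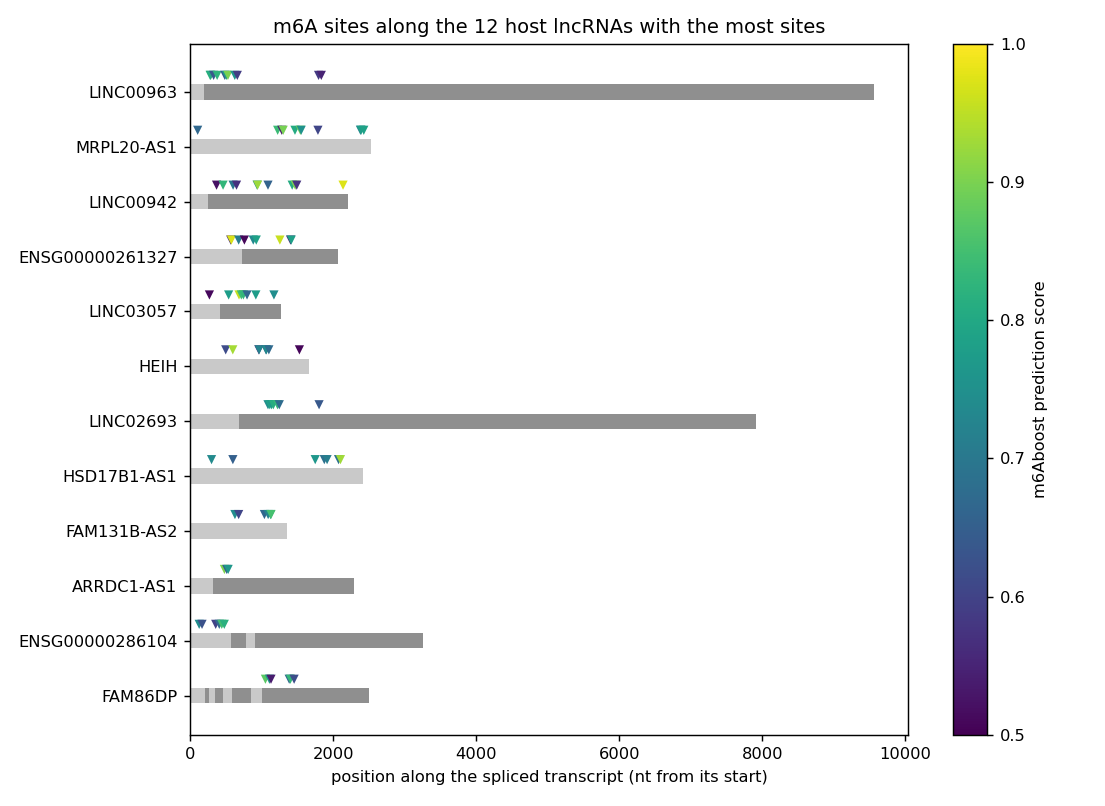
Spliced transcripts of the 12 host lncRNAs with the most sites, with exons as alternating grey bars and position in nt from the transcript start on the horizontal axis. Triangles are the sites that lie in the drawn transcript, coloured by prediction score from 0.5 to 1, and in LINC00963 9 of 11 crowd between positions 280 and 660 of 9557 nt.

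Small nucleolar RNA host genes were the role list with the most sites. They carry snoRNAs, which guide the modification of ribosomal RNA, in their introns and are spliced to release them. Of 32 such genes, 11 had sites, 19 in all, against 0.456% of all annotated lncRNA genes with a site. SNHG32 had 4, with scores of 0.711, 0.712, 0.5003 and 0.760, over every exon but the second of its 4. SNHG8 had scores of 0.517 and 0.863 at 1 and 56 nt from a junction, and SNHG7 had 0.628 and 0.847. SNHG16 had 0.767 and 0.599, and SNHG29 had 0.783 and 0.553. DANCR, which holds progenitor cells back from differentiation, had sites of 0.523 and 0.753 only 4 nt apart. The single sites of SNHG1 (0.578), SNHG11 (0.836), SNHG12 (0.675), SNHG19 (0.689) and ZFAS1 (0.590) completed the group. The SNHG1 site also lay in an annotated snoRNA exon.

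Of 11 nuclear and chromatin-associated lncRNAs, 2 had sites. CHASERR, which represses its neighbour CHD2, had 3 sites within its last exon of 1978 nt, at transcript positions 897, 920 and 933 and with scores of 0.991, 0.712 and 0.8998. The first of these was the highest score of any lncRNA site. PVT1, a neighbour of the oncogene MYC, had sites of 0.543 and 0.946 in exon 4. It was also the only one with a site among 13 lncRNAs on a chosen list of those studied in tumours. That list left out LINC00963 and HEIH, which had 12 and 8 sites and are described above from work on cancers. Of 7 cytoplasmic lncRNAs, DANCR and ZFAS1 had sites. None of 85 microRNA host genes and none of the 7 lncRNAs on the list for the p53 pathway had one. The role lists were selections and need not hold every lncRNA of a group. With 0.456% of all annotated lncRNA genes holding a site, a count of 0 in lists of this size is near the background and is no result about them. MALAT1, NEAT1, NORAD, GAS5, OIP5-AS1 and KCNQ1OT1 had no listed site in any exon, and because the list holds neither expression nor rejected candidates, this cannot be told apart from too few reads.

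Most lncRNA sites were in DRACH. There were 221 such sites (88.4%, 83.8 to 91.8), against 88.7% (88.3 to 89.2) of the sites in coding exons. The shorter motif RAC was met by 95.2% and the dinucleotide AC by 98.8%. GGACT was the most frequent pentamer with 50 sites in 36 genes (20%, 15.5 to 25.4), close to its 21.7% among coding sites. GAACT followed with 36 sites (14.4%, 10.6 to 19.3, against 9.97% of coding sites), then AGACT with 29 (11.6% against 9.95%), TGACT with 24 (9.60% against 6.94%) and GGACA with 23 (9.20%, 6.21 to 13.4, against 13.5%). The coding share lay outside the interval of the lncRNA share for GAACT and GGACA, and among the remaining pentamers also for AAACT with 16 sites (6.4%, 3.98 to 10.1, against 3.86%) and TGACG with 3 (1.2%, 0.409 to 3.47, against 0.146%). Host lncRNA transcripts were less GC-rich than those of coding hosts, with a median of 52.0% (50.1 to 54.8) against 57.1% (56.7 to 57.3), and the part of base composition in these pentamer shares was not tested.

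The 29 sites outside DRACH had lower scores, with a median of 0.585 (0.550 to 0.668) and a maximum of 0.794, against a median of 0.757 (0.725 to 0.767) for the 221 inside it. The sequence is an input of the classifier, so the share of sites in a motif and the scores of the motif groups are not independent of it. G followed the AC in 16 of the 29 (55.2%, 37.5 to 71.6). GGACG had 9 sites, each in a different gene, with a median score of 0.686. GTACT had 5 sites, whereas 3 sites each were found for GAACG, for GGATT and for TGACG.

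The motif alone left most candidates unlisted. In the chosen transcripts of the 74 hosts with a listed DRACH motif, 196 of 3762 DRACH motifs were listed (5.21%, 4.54 to 5.97). In coding hosts 15548 of 212145 were listed (7.33%, 7.22 to 7.44). Motif density was similar, at 18.1 per kb in lncRNA hosts and 17.4 per kb in coding hosts, whereas listed sites at DRACH reached 0.942 and 1.27 per kb. GGACT motifs of lncRNA hosts were listed in 44 of 224 cases (19.6%, 15.0 to 25.3) and all other DRACH motifs in 152 of 3538 (4.30%, 3.68 to 5.02). In coding hosts these shares were 25.98% (25.3 to 26.7) and 5.95% (5.85 to 6.06). GAACT motifs were listed in 18.9% (13.8 to 25.2) of cases in lncRNA hosts, about as often as GGACT, and AAACT motifs in 5.88%. Hosts enter these shares only through a listed motif, and expression was not available to match the host sets. Because the classifier reads the sequence around each adenosine, the shares listed by pentamer are not independent of that input.

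Scores of lncRNA sites ranged from 0.5003 to 0.991 with a median of 0.734 (0.711 to 0.758) and quartiles of 0.629 and 0.818. Coding sites had a median of 0.755 (0.752 to 0.758). The difference of the medians was -0.0203, with an interval from -0.0438 to 0.00329 that included 0. Among sites at DRACH the difference was -0.0122 (-0.0441 to -0.00243), and within GGACT alone the medians were 0.790 (0.717 to 0.818) and 0.834 (0.829 to 0.838), a difference of -0.0445 (-0.118 to -0.0165). Both of these intervals lay below 0. All intervals of the differences take the coding median as fixed, so they are too narrow. At DRACH the intervals of the medians themselves overlapped, with the lncRNA one ending at 0.76695 and the coding one starting at 0.76671. Scores of 0.9 or more were reached by 20 lncRNA sites (8%, 5.24 to 12.03), against 11.1% of coding sites. After CHASERR, the highest scores were those of LINC00942 (0.973, AAACT) and ENSG00000261327 (0.971, GGACT). The lowest were SNHG32 (AGACA, score 0.5003), ENSG00000238142 (GAACT, score 0.501) and HEIH (GTACA, score 0.507).

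The regions of coding transcripts differed among themselves, with median scores of 0.798 for 3′ untranslated regions, 0.707 for coding sequence and 0.624 for 5′ untranslated regions. The lncRNA median lay between those of coding sequence and 3′ untranslated regions. The transcript region is itself an input of m6Aboost, so this order describes the classifier's output, and what part of it came from methylation was not tested.

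**Figure D3:**
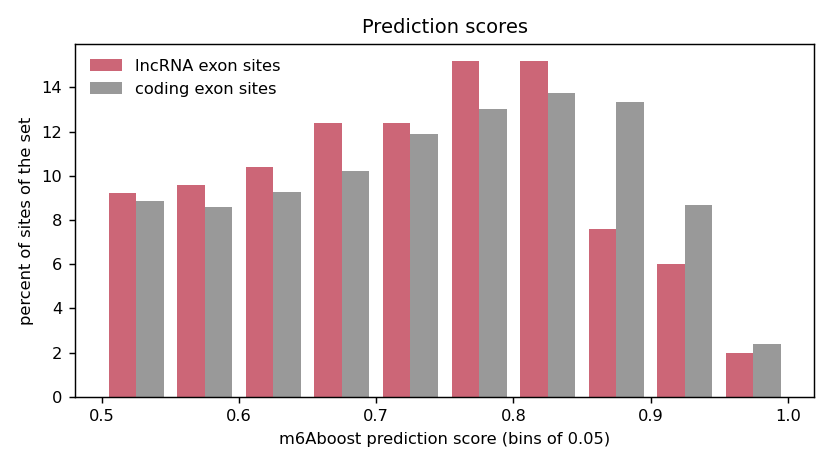
Percent of sites (vertical axis) by m6Aboost prediction score in bins of 0.05 (horizontal axis), for the 250 lncRNA exon sites and the 18432 coding exon sites. The bins from 0.75 to 0.85 hold the most lncRNA sites, 15.2% each, and between 0.85 and 0.9 there are 7.60% of lncRNA sites against 13.3% of coding sites.

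Host lncRNAs had few exons in the transcripts chosen for them. For each host the longest transcript was chosen, among those with annotation support where there were any, and 222 of the 250 sites lay in it. Whether that transcript is the one expressed in C643 cells was not measured. The number of exons was not checked with other annotated transcripts of the hosts. The median host transcript had 2505.5 nt and 2 exons, against 2904 nt and 8 exons for coding hosts, and 27 of 86 hosts (31.4%) had 1 exon. Single-exon transcripts held 82 of the 222 placed sites (36.9%, 30.9 to 43.5), against 4.03% of coding sites. HEIH, MRPL20-AS1, HSD17B1-AS1 and FAM131B-AS2 were of this kind.

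Of the 140 sites in lncRNAs with more than 1 exon, 104 lay in the last exon (74.3%, 66.5 to 80.8), 27 in the first (19.3%, 13.6 to 26.6) and 9 in an internal exon (6.43%, 3.42 to 11.8). Coding sites had nearly the same share in the last exon (74.9%), but 5.04% in the first and 20.05% in internal exons. These shares depend on where motifs lie, so sites at DRACH were set against all DRACH motifs of the same transcripts. The expected share is that of the motifs in each transcript, averaged over transcripts with their listed sites as weights. In lncRNAs the last exon held 73.4% of these sites against 69.4% expected, a ratio of 1.06 (0.936 to 1.16). In coding hosts the ratio was 1.42 (1.41 to 1.43), with 74.6% of the sites in the last exon against 52.6% expected. The largest ratio possible is smaller where more of the motifs lie in the last exon, so the shares of motifs listed are given too. In lncRNAs 5.01% (4.10 to 6.12) of last-exon motifs were listed and 3.14% (2.25 to 4.38) of the others, against 10.4% and 3.76% in coding hosts. The first exon of lncRNAs had 3.59% (2.44 to 5.25) of its motifs listed and that of coding hosts 5.34%. Which motifs are listed is decided by m6Aboost, which takes the transcript region as an input. The part of this input in the contrasts of lncRNA with coding hosts, here and by exon length, junction distance and position below, was not tested.

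Sites lay mostly in long exons, and so did the DRACH motifs of the hosts. The exon that held a lncRNA site had a median length of 1806 nt (1496 to 1958), and that of a coding site 1463 nt. All exons of the lncRNA hosts had a median of 359 nt, but this counts each exon once, whereas long exons hold more motifs. Exons of 1000 nt or more held 3051 of the 3762 DRACH motifs in lncRNA hosts and 135 of the 196 listed ones. In the Ensembl canonical transcripts of the lncRNA hosts the median was 980.0 nt (944 to 1278). The coding value was taken from the longest transcripts only, so the order of the host sets in canonical transcripts was not determined. By exon length, 2 of 153 DRACH motifs in lncRNA exons under 200 nt were listed (1.31%, 0.359 to 4.64). The share was 8.46% (5.35 to 13.1) at 200 to 499 nt, 11.8% (8.82 to 15.5) at 500 to 999 nt and 4.42% (3.75 to 5.21) at 1000 nt or more. In coding hosts it was 1.49, 6.16, 15.6 and 9.32% in the same classes. In both host sets the value was lowest in the shortest exons and highest at 500 to 999 nt. In lncRNAs, however, the intervals at 200 to 499 and 500 to 999 nt overlapped, as did those under 200 nt and at 1000 nt or more. At 1000 nt or more the interval of the lncRNA share lay below the coding share. The 9 sites in internal lncRNA exons stood in exons of 200 to 1746 nt.

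Distance to the nearest junction between exons was measured along the spliced transcript. Within 50 nt of a junction, 6 of 243 DRACH motifs of lncRNAs were listed (2.47%, 1.14 to 5.28), against 1.94% in coding hosts. At 51 to 100 nt the share was 9.35% (5.55 to 15.3) in lncRNAs and 4.11% (3.86 to 4.36) in coding hosts, and at 101 to 200 nt it was 12.5% (8.61 to 17.8) and 15.4%. At 201 to 400 nt it was 8.63% (6.08 to 12.1) and 20.2% (19.6 to 20.8), and beyond 400 nt it was 2.62% (1.998 to 3.43) and 7.57%. The coding share was highest between 201 and 400 nt. The lncRNA share had its highest value between 101 and 200 nt, but its intervals at 51 to 100, 101 to 200 and 201 to 400 nt overlapped. Taking the whole first 100 nt together, 19 of 124 DRACH sites of lncRNAs lay there, an observed over expected ratio of 0.998 (0.654 to 1.48), against 0.377 (0.362 to 0.392) in coding hosts. With a window of 50 nt the lncRNA ratio was 0.517 (0.239 to 1.08), and with a window of 200 nt it was 1.46 (1.13 to 1.82).

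Along the transcript, the median placed lncRNA site stood at 44.5% of the length from the 5′ end (34.9 to 50.7). The median coding site stood at 57.8% (57.1 to 58.5). The median DRACH motif of all 86 host lncRNAs, with those that had no placed site included, stood at 53.3% (52.0 to 54.8). The share of motifs listed went from 7.05% (5.29 to 9.33) in the first 20% of the length of lncRNA transcripts, through 6.22, 5.30 and 4.89% in the following steps of 20%, to 3.10% (2.11 to 4.54) in the last. In coding hosts it was 4.28% in the first 20% and 8.24% in the last, with its highest value, 8.92%, between 60 and 80% of the length. Of the 44 listed motifs in the first 20% of lncRNA transcripts, 10 were those of LINC00963, 6 those of ENSG00000286104 and 5 those of LINC02693. Without LINC00963 the first and last 20% stood at 5.77% (4.16 to 7.96) and 3.25% (2.21 to 4.76), and in the canonical transcripts at 6.10% (4.16 to 8.85) and 3.33% (2.06 to 5.35). In both cases the intervals overlapped. Within 50 nt of a transcript start of the host lay 14 of the 250 sites (5.6%, 3.36 to 9.18). The paper states that the antibody also recognises N6,2′-O-dimethyladenosine (m6Am), a related modification at 5′ caps. Whether any of the 14 sites is m6Am was not tested.

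**Figure D4:**
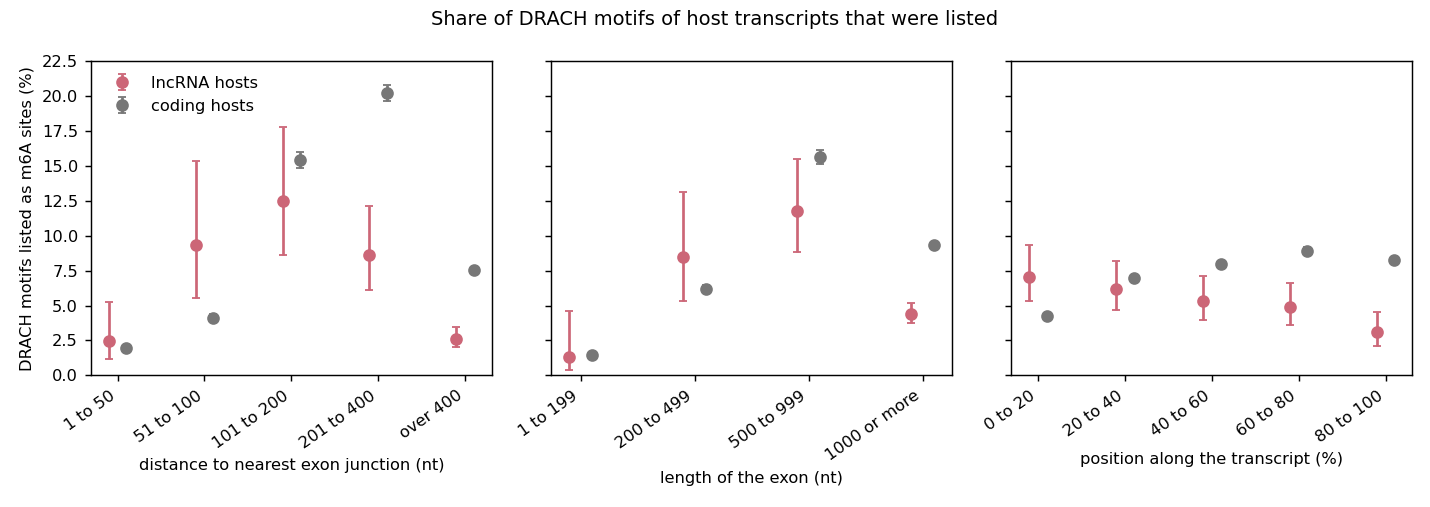
Percent of DRACH motifs in host transcripts that were listed as m6A sites (vertical axis), by distance to the nearest exon junction, exon length and position along the transcript from its 5′ end (horizontal axes), for lncRNA and coding hosts. Points are shares and bars are 95% Wilson intervals over motifs, and along the transcript the lncRNA share goes from 7.05% to 3.10% while the coding share goes from 4.28% to 8.24%.

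Sites of a host stood close together. Between neighbouring sites of the same lncRNA the median gap was 51 nt (41 to 70, 147 gaps), against 95 nt (93 to 98) in coding hosts, and 73 of the gaps (49.7%, 41.7 to 57.6) were at most 50 nt, against 32.3%.

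Some of this spacing lay in repeated sequence, which was looked for after the values had been seen. In 4 lncRNAs, 10 sites (4%, 2.19 to 7.21) formed 5 pairs whose 29-nt windows shared at least 23 bases with each other, against 54 of 18432 sites (0.293%, 0.225 to 0.382) in coding exons. The windows of 1 site of each exact copy are shown first, since they recur without a change.
HEIH (chr5:180830647-180830675, minus strand): aaatgagaatgaTGACTgactgagaccct
HEIH (chr5:180830547-180830575, minus strand): aaatgagaatgaTGACTgactgagaccct
FAM131B-AS2 (chr7:143380391-143380419, minus strand): ttgggcattctgAGACTgcgcttggtgga
FAM131B-AS2 (chr7:143380339-143380367, minus strand): ttgggcattctgAGACTgcgcttggtgga
In HEIH the copies lay 100 nt apart within an identical run of 62 nt, and each copy held a pair of TGACT sites 4 nt apart. The first TGACT scored 0.558 and 0.658 in the respective copies and the second 0.723 and 0.741. In FAM131B-AS2 the copies lay 52 nt apart within an identical run of 34 nt and scored 0.742 and 0.602. The authors kept uniquely mapping reads only, and how many reads inside such runs could be placed is not known here.

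The copies in MILIP, a lncRNA induced by MYC, were 59 nt apart and shared 26 of 29 bases, with scores of 0.579 and 0.706. In LINC02693, 1 pair of sites 25 nt apart met the rule with 23 of 29 bases. The neighbouring sites stood at the same step, with 4 successive sites 25 nt apart, then a gap of 58 nt and 1 further step of 25 nt, but their windows shared fewer bases. All 6 windows are given from 5′ to 3′ so that this can be seen.
LINC02693 (chr17:21535121-21535149, minus strand): gcatgctctgtgGAACTcagggtcttcat
LINC02693 (chr17:21535096-21535124, minus strand): tcattttgcatgAAACTcagggtcttcat
LINC02693 (chr17:21535071-21535099, minus strand): tcattttccgtgGAACTcaaagtcttctt
LINC02693 (chr17:21535046-21535074, minus strand): tcttgctctgtgGAACTtggagtctcagg
LINC02693 (chr17:21534988-21535016, minus strand): gtgtgattcatgGAACTcagaatccttgt
LINC02693 (chr17:21534963-21534991, minus strand): ttgtgctctgtgGTACTcagggtgtgcgt
Their scores were 0.746, 0.787, 0.769, 0.811, 0.831 and 0.673 in this order. GAACT was the pentamer in 4 of them and AAACT in 1, and the lowest score was that of GTACT, the single one of the 6 outside DRACH. Successive windows shared 22, 23, 18, 15 and 17 of 29 bases.

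Most lncRNA sites lay apart from protein-coding genes. Of the 250, 40 in 18 hosts (16%, 11.98 to 21.1) lay opposite the span of a coding gene on the other strand, and 25 of these in 11 hosts (10%, 6.87 to 14.3) lay opposite one of its exons. All 5 sites of A1BG-AS1 were opposite an exon, with scores from 0.579 to 0.855, as were all 4 of the unnamed ENSG00000272831, both of PINK1-AS, antisense to the mitochondrial kinase gene PINK1, and 3 of 7 in HSD17B1-AS1. On the same strand, 11 sites in 6 hosts (4.40%, 2.47 to 7.71) lay within the span of a coding gene, outside its exons, among them the 3 of CHASERR and the 3 of GABPB1-IT1. Within 5 kb downstream of a coding gene on the same strand stood 7 sites (2.80%), in PINK1-AS, THAP7-AS1, SNHG29 and SNHG32. The groups overlapped, and the sites of PINK1-AS and IRF1-AS1, for example, were in an opposite-strand and a same-strand group. Neither an opposite coding gene span, nor a same-strand span, nor an upstream coding gene within 5 kb applied to 196 sites (78.4%, 72.9 to 83.1) in 66 hosts. Reads from an unannotated extension or intron of the neighbouring coding gene cannot be told apart from reads of the lncRNA at the 11 and 7 sites. A further overlap was with pseudogenes, in whose exons 13 sites in 6 hosts also lay, 6 of them in ENSG00000286104 and 2 in TRIM16L.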

How the data were processed

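Per the labels and the study's methods, the authors performed miCLIP2 on polyadenylated RNA of wild-type C643 cells (3 biological replicates, 4 libraries), aligned reads to GRCh38.p12 with STAR 2.7.3a and GENCODE release 31, kept uniquely mapping reads, removed duplicates with UMI-tools 1.0.0, called PureCLIP peaks per replicate, kept those in at least 2 replicates and classified adenosines with m6Aboost. The deposited values are the authors' m6Aboost scores, a fraction from 0 to 1 for each accepted site of the pooled replicates, without counts, so depth is unknown.

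Sites were joined to GENCODE release 44 (GRCh38) by strand with Python 3.11.15 and pysam 0.24.0. Some sites may have been coding or unannotated in release 31, whose transcript regions m6Aboost read, so the class given here need not be the one behind a score. A site in several lncRNA genes went to a gene that is no readthrough, then to one with a symbol, then to the longest. The chosen transcript was the longest whose transcript support level was 3 or better, or not given, and whose annotation level was 1 or 2 (the longest of all where none passed, as in LINC00942), and motifs in coding exons were left out of its motif total. RefSeq gave biotypes by symbol or identifier for 64 of 86 hosts. Shares carry Wilson 95% intervals and medians order-statistic intervals, and with 1 group no test was made. In simulated transcripts the scripts recovered the coordinates set. The junction ratio was close to 1 without an effect and lower where listing near junctions had been reduced. Other steps were not simulated.

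The text names the 12 hosts with the most sites (ties by summed score), members of the role lists with a site, and the 3 highest and 3 lowest scored sites. The members and lists were chosen with earlier results of these data known, and other genes were named after their values were seen. Alternatives were a score of at least 0.7, the motif RAC, exclusion of sites opposite coding exons or within 5 kb downstream of coding genes, supported exons only, other transcripts, junction windows of 50 and 200 nt, and leaving out LINC00963. Shares by position along the transcript and by junction distance were checked under alternatives added after the data were seen.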

Additional observations from a re-analysis of the deposited data

How the results depend on the processing

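Of 60 alternative values for 15 results, 51 stayed within the intervals or the 1.5-fold range of the values given above and 9 moved. With a score of at least 0.7 there were 146 sites, a median of 1 site per host and 97.9% of sites in DRACH. With RAC as the motif the share was 95.2%. The score difference between lncRNA and coding sites was -0.0445 for GGACT alone. In the Ensembl canonical transcript the last exon held 66.2% of sites, the median exon with a site had 980.0 nt, and the share of motifs listed between over 100 and 400 nt from a junction was 13.2% against 10.1%. With a junction window of 50 nt the observed over expected ratio was 0.517, and with 200 nt it was 1.46 (1.13 to 1.82). Exon length and the place in the last exon therefore depend on which annotated transcript is taken, and the list does not show which one C643 cells express. No paired analysis was possible because all libraries belong to 1 group, and no replicate could be left out since the list pools them.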
